A study of Mus musculus with 6 samples.

Results

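The miR-99/100 and miR-125 families were described in cultured embryonic mouse cardiomyocytes (EMCMs). Members were the rows named miR-99, miR-100 or miR-125, with any letter, arm or copy, and 11 of the 689 miRNA rows met this rule. These rows are both arms of miR-99a, miR-99b, miR-100 and miR-125a, together with miR-125b-5p and the 3p arms of its copies, miR-125b-1-3p and miR-125b-2-3p. The cells were wild-type E16.5 cardiomyocytes of a Swiss Webster background, grown on plates coated with collagen 1. In the stretch group, 3 cultures were stretched cyclically over 24 hours, by 16% and with a frequency of 1 Hz, and 3 static cultures were kept for 24 hours as controls. The labels give fewer cultures per group than the study's methods do, and the methods name CD1 mice. The value used for each miRNA is the authors' mean abundance over both groups, so it describes the level in these cultures and not the response to stretch. No value of a single culture was used, so the depth of each library is unknown, and neither an SD nor a test can be given for any level below.

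Each miRNA hairpin is cut into a short duplex, and an Argonaute protein keeps mainly 1 of its arms. The bases near the 5′ end of the retained arm, known as the seed, do most of the pairing with target mRNAs, so miRNAs with the same seed are grouped as a family. miR-100, let-7 and miR-125 are an ancient chromosomal cluster of animals, and miR-125 is the mammalian relative of lin-4, the worm miRNA that times larval development together with let-7. miR-99/100 miRNAs are known to repress Mtor, a growth-controlling kinase, and Smarca5, a chromatin remodeler. miR-125 miRNAs are known to repress Lin28a, an RNA-binding protein that blocks the maturation of let-7.

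The mature sequences of the abundant arms are shown because the seed, written in capitals and covering bases 2 to 8, divides them into the families. All 11 members were matched to mature miRNAs of RefSeq on GRCm38.p6.
miR-99b: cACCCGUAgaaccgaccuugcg
miR-100: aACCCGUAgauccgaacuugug
miR-99a: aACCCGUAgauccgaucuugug
miR-125b-5p: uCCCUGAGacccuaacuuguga
miR-125a-5p: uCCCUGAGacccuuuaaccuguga
miR-351: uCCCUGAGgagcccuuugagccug
The first 3 share 1 seed, and the remaining 3 share another. miR-351 is no member by its number and is listed because it carries the miR-125 seed. miR-99a and miR-100 were identical at 21 of 22 positions, with the substitution U16A from miR-99a to miR-100, counted from the 5′ end. miR-99a and miR-99b were identical at 18 of 22 positions, with the substitutions A1C, U11A, U16C and U21C. miR-125a-5p and miR-125b-5p shared their first 13 bases. miR-351 shared its first 8 bases with both. It was identical to miR-125b-5p at 10 of 22 positions, these 8 included, so it was less similar outside the seed.

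The opposite arms are shown because their seeds differ from those of the abundant arms and, within miR-125, from each other.
miR-99b*: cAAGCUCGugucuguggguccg
miR-99a*: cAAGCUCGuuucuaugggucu
miR-100*: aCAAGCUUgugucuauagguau
miR-125a-3p: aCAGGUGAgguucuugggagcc
miR-125b-1-3p: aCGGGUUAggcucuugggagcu
miR-125b-2-3p: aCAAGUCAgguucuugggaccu
Only miR-99a* and miR-99b* had the same seed. The 3p arms of the copies of miR-125b were identical at 17 of 22 positions, with the substitutions G3A, G4A, U7C, C11U and G20C from copy 1 to copy 2. All 11 sequences were 21 to 24 nt long, so read shares were compared without scaling by length. The longest stretch common to any of the 55 pairs of members was 15 nt, in miR-99a and miR-100. This is shorter than the shortest tag kept, 18 nt, so 0 of the 55 pairs shared a full tag. Whether the authors' mapping allowed mismatches is not given in the sources used here. With 1 mismatch allowed, a tag of miR-99a could also match miR-100, and the reverse. How such tags would be assigned is likewise not given.

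The families were abundant in EMCMs. Together, the 11 members held 15.6% of all miRNA reads, against 5.2% for the 19 let-7 rows. miR-99b, with 11.7%, was the third most abundant of the 689 miRNAs. Without miR-99b, the members summed to 3.89%, which was below the sum of the let-7 rows. The next members were miR-125b-5p with 1.28% at rank 13, miR-125a-5p with 1.23% at rank 14, miR-100 with 0.64% at rank 20 and miR-99a with 0.449% at rank 28. A sixth member, miR-125b-1-3p, the 3p arm of a miR-125b copy, held 0.255% at rank 33. The remaining 5 rows were all opposite arms and lay far lower, from miR-125b-2-3p with 0.0204% at rank 120 to miR-100* with 2.93e-05% at rank 541.

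On the log2 scale of the deposited values, the mean abundance was -3.10 for miR-99b, -6.30 for miR-125b-5p, -6.35 for miR-125a-5p, -7.29 for miR-100 and -7.81 for miR-99a. The median of the 664 miRNAs with a readable level was -17.57. The further 25 rows lay at -35.64 or lower, apart from all others, and were not read as levels. None of the members was among them, and 10 of the 11 lay above the median, the exception being miR-100*. Levels above 1 RPM (reads in every 1000000 miRNA reads) were found for 10 of the 11 members (90.9%) and for 442 of the 689 rows (64.2%).

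**Figure D1:**
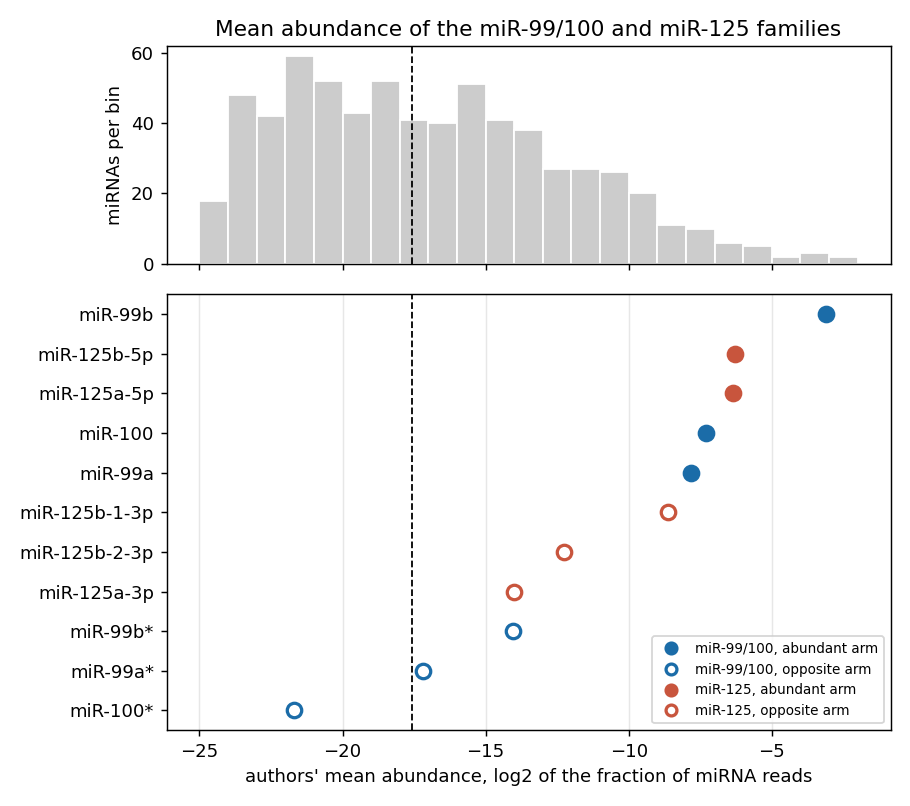
The upper panel shows how many of the 664 miRNAs with a readable level fall in each unit of mean abundance (log2 of the fraction of miRNA reads), and the lower panel shows each member on the same axis, with filled circles for abundant arms, open circles for opposite arms and a dashed line at the median of -17.57. The 5 abundant arms lie between -7.81 and -3.10, and the opposite arms are spread from -21.71 to -8.62.

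The order of neighbouring miRNAs could not be resolved, since no spread was available. miR-125b-5p exceeded miR-125a-5p by 1.04-fold, and miR-125a-5p exceeded the next miRNA, miR-208b, by 1.05-fold. miR-100 lay between miR-378 with 0.726% and miR-16 with 0.634%. miR-99a lay between miR-31 with 0.454% and let-7c with 0.383%. miR-99b stood between miR-143 with 13.4% and miR-27b with 7.49%, the latter a 1.56-fold step. The most abundant miRNA of the table, miR-22, exceeded miR-99b by 1.76-fold.

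The miR-99/100 family was set mainly by miR-99b. Its 6 rows held 12.8% of the miRNA reads, and miR-99b made up 91.4% of that. miR-99b exceeded miR-100 by 18.2-fold and miR-99a by 26-fold, although all of them carry the seed ACCCGUA. RefSeq lists 3 mature mouse miRNAs with this seed, and they are these members. miR-10a and miR-10b, the miRNAs of the Hox gene clusters, belong to the same wider group by sequence but have the seed ACCCUGU. miR-10a held 0.0664% and miR-10b held 0.0603%. Taken as sums, the abundant arms of miR-99/100 exceeded these by 101-fold.

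The reads of the miR-125 family were spread more evenly over its abundant arms. Its 5 rows held 2.79% of the miRNA reads, so the miR-99/100 family exceeded it by 4.58-fold. Its seed, CCCUGAG, was also carried by miR-351, an X-linked miRNA that held 2.05% at rank 10. miR-351 exceeded miR-125b-5p by 1.6-fold and miR-125a-5p by 1.66-fold, so the most abundant carrier of the miR-125 seed in EMCMs was not named miR-125. With miR-351 included, the seed accounted for 4.56% of the miRNA reads, of which miR-351 contributed 44.9%. RefSeq gives the seed to 5 mature mouse miRNAs, and the others, miR-6367 and miR-6394, had no row among the deposited values.

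**Figure D2:**
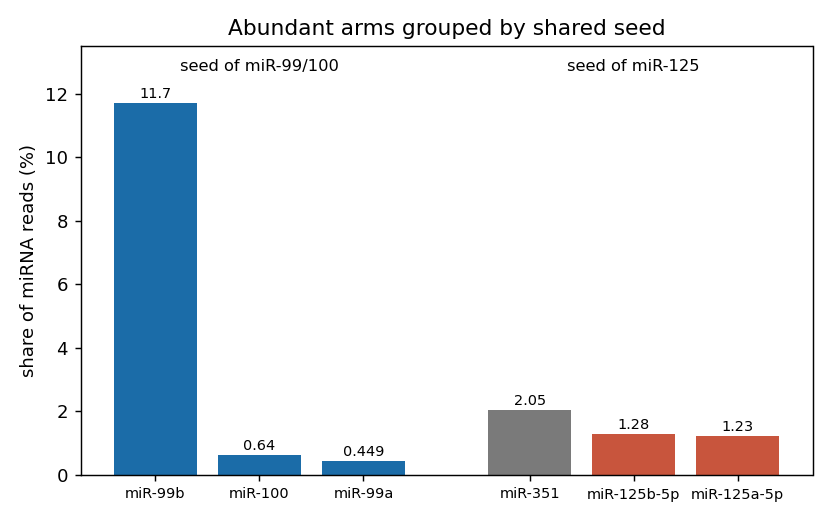
Bars show the share of miRNA reads in percent for each abundant arm, grouped by shared seed, with miR-99/100 miRNAs in blue, miR-125 miRNAs in red and miR-351, which is no member, in grey. miR-99b at 11.7% stands above all other bars, and miR-351 at 2.05% is the highest bar of the miR-125 seed.

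The members come from 3 genomic clusters, each with a miR-99/100 hairpin, a let-7 hairpin and a miR-125 hairpin in this order on the plus strand. Positions are those of the GENCODE annotation of GRCm38, matched by hairpin name, and the build used by the authors is not given in the sources used here. On chromosome 17, Mir99b (17830188 to 17830257), Mirlet7e (17830352 to 17830444) and Mir125a (17830812 to 17830879) start within 0.624 kb. Mir99b and Mirlet7e lie in introns of the protein-coding gene Spaca6, and Mir125a overlaps an annotated exon of it. On chromosome 9, Mir100 (41531425 to 41531504), Mirlet7a-2 (41536716 to 41536811) and Mir125b-1 (41581926 to 41582002) span 50.5 kb between their starts, in introns of the noncoding genes 3110039I08Rik and Gm49317. On chromosome 16, Mir99a (77598936 to 77599000), Mirlet7c-1 (77599657 to 77599750) and Mir125b-2 (77646273 to 77646343) span 47.3 kb between their starts, in introns of the noncoding host gene Mir99ahg. Mir125b-1 and Mir125b-2 also overlap annotated exons of Gm28119 and C130023A14Rik on the same strand. On the opposite strand, Mir100 overlaps an exon of the lincRNA Gm48742, and Mirlet7e overlaps an exon of the miRNA gene Gm25927. Whether counting used strand is not given in the sources used here.

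Most reads of the families came from the chromosome 17 cluster. Its 4 member rows held 12.9% of the miRNA reads, which was 83% of the reads of all members. The 3 rows that belong to the chromosome 9 cluster alone held 0.896%, and the 3 that belong to the chromosome 16 cluster alone held 0.47%. miR-125b-5p has the same sequence at both of the latter loci, so its 1.28% could not be divided between them. If all of it were counted with either cluster, the share would be 2.17% for chromosome 9 or 1.75% for chromosome 16, both below that of chromosome 17.

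Levels of all hairpins within a cluster could be compared only on chromosome 17, where each abundant arm has a single locus. There, miR-99b exceeded miR-125a-5p by 9.48-fold, a log2 difference of 3.24, while miR-125a-5p exceeded let-7e (0.16%) by 7.69-fold. The hairpin of the lowest abundant arm, Mirlet7e, thus lay between those of both members. On chromosome 9, miR-100 exceeded let-7a (0.465%) by 1.38-fold, and on chromosome 16, miR-99a exceeded let-7c (0.383%) by 1.17-fold. let-7a and let-7c each have a further locus elsewhere in the genome, so the last 2 values do not compare hairpins of a single transcript. miR-100 exceeded miR-99a by 1.43-fold, the smallest step among the 3 miR-99/100 miRNAs.

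**Figure D3:**
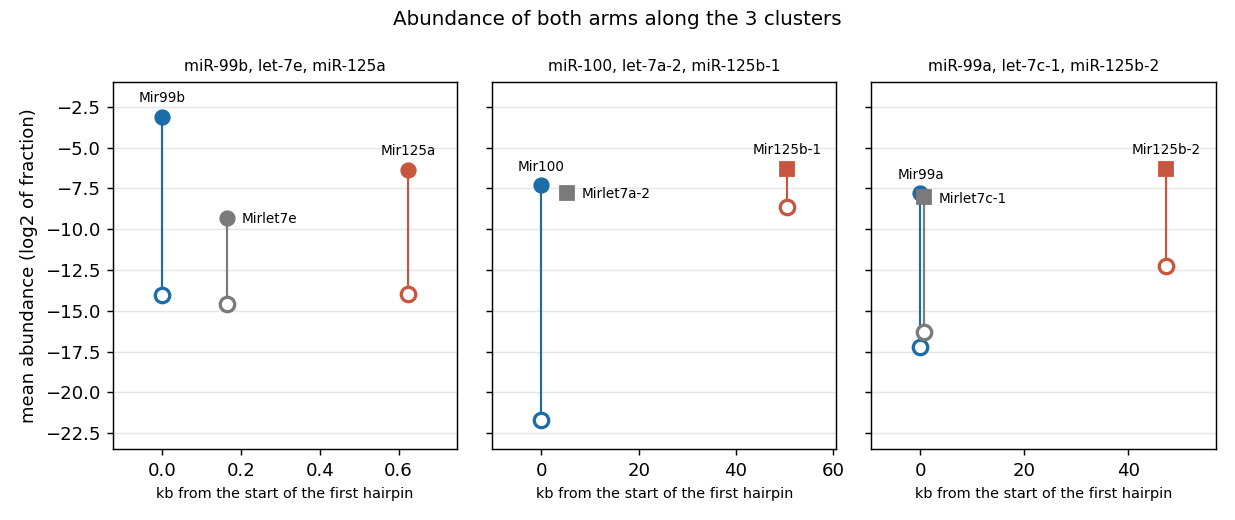
For each cluster, the mean abundance (log2 of the fraction of miRNA reads) of both arms is plotted against the distance in kb from the start of its first hairpin, with filled symbols for the 5p arm and open circles for the 3p arm, squares for 5p arms that have a second locus, and blue, grey and red for miR-99/100, let-7 and miR-125. The arms of Mir100 span from -21.71 to -7.29, the square of miR-125b-5p at -6.30 is the same undivided value in both panels that show it, and the 3p arm of let-7a-2 is left out because it has no readable level.

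The copies of miR-125b could be told apart by their 3p arms. miR-125b-1-3p, from chromosome 9, held 0.255% of the miRNA reads, and miR-125b-2-3p, from chromosome 16, held 0.0204%. The former exceeded the latter by 12.5-fold, a log2 difference of 3.65, and made up 92.6% of the 3p reads of miR-125b. The abundant arms of the neighbouring miR-99/100 hairpins differed in the same direction but by less, since miR-100 of chromosome 9 exceeded miR-99a of chromosome 16 by 1.43-fold. The opposite arms of these neighbours differed the other way, with miR-99a* exceeding miR-100* by 22.8-fold, or by 5.95-fold when 1 RPM was added to both.

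Hairpins of each family are printed with both arms in capitals, to show the arms whose reads are compared next.
Mir100, chr9:41531425-41531504, plus strand of GRCm38.p6: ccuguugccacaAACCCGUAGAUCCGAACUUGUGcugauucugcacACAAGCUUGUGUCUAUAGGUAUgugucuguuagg
Mir125b-1, chr9:41581926-41582002, plus strand of GRCm38.p6: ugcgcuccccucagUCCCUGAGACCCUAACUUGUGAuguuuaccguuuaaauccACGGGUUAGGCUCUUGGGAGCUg
Both lie in the chromosome 9 cluster, and they are shown because miR-100* was the lowest and miR-125b-1-3p the highest of the opposite arms. In the 4 hairpins whose arms each have a single locus, those of miR-99a, miR-99b, miR-100 and miR-125a, the 5p arm was the more abundant. For the copies of miR-125b the 5p reads could not be divided, so the direction within each copy is not known. Among the 68 hairpins of the table with arms named 5p and 3p, the 5p arm was the more abundant in 28.

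The miR-99/100 hairpins had strongly unequal arms. miR-100 exceeded miR-100* by 21848-fold, a log2 difference of 14.42, and of the 228 hairpins without a copy number whose arms both had a readable level, 1 had a larger difference, miR-192. Among 32 copy-numbered asterisk arms with a readable level, set against an abundant arm that their copies share, 1 had a larger one. This was let-7f-2* with 15.41, which is an upper limit. Arms without a readable level were left out, such as miR-182* from the first count and let-7a-2* from the second. Larger differences may therefore be missing from both counts. The level of miR-100* was 0.293 RPM, and with 1 RPM added to both arms the log2 difference of miR-100 was 12.27. miR-99b exceeded miR-99b* by 1946-fold, with 17 of the 228 hairpins showing a larger difference. miR-99a exceeded miR-99a* by 671-fold, with 25 hairpins showing a larger one. The median difference over the 228 hairpins was 3.91 on the log2 scale, with quartiles of 1.79 and 6.98. It includes hairpins with a low higher arm, for which a large difference could not be read. Abundant miRNAs outside the families ranged widely, with 13.99 for miR-143, 12.58 for miR-22, 8.66 for miR-27b, 6.96 for miR-21 and 0.96 for miR-151. Strongly unequal arms were thus not particular to miR-99/100.

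In the miR-125 hairpins the excess of the 5p arm was smaller. miR-125a-5p exceeded miR-125a-3p by 200-fold, a log2 difference of 7.65, and 50 hairpins had a larger one. miR-125b-5p exceeded miR-125b-2-3p by 62.6-fold and miR-125b-1-3p by 5-fold. Since miR-125b-5p is made from both loci, these last values are upper limits of the excess of 5p over 3p in the single hairpins. For Mir125b-1 the limit was 2.32 on the log2 scale, and 152 of the 228 hairpins had a difference between their arms above that value. The limit does not bound an excess of 3p over 5p, so the place of Mir125b-1 among them is not known. Summed over both copies, the 5p arm exceeded the 3p arms by 4.63-fold.

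**Figure D4:**
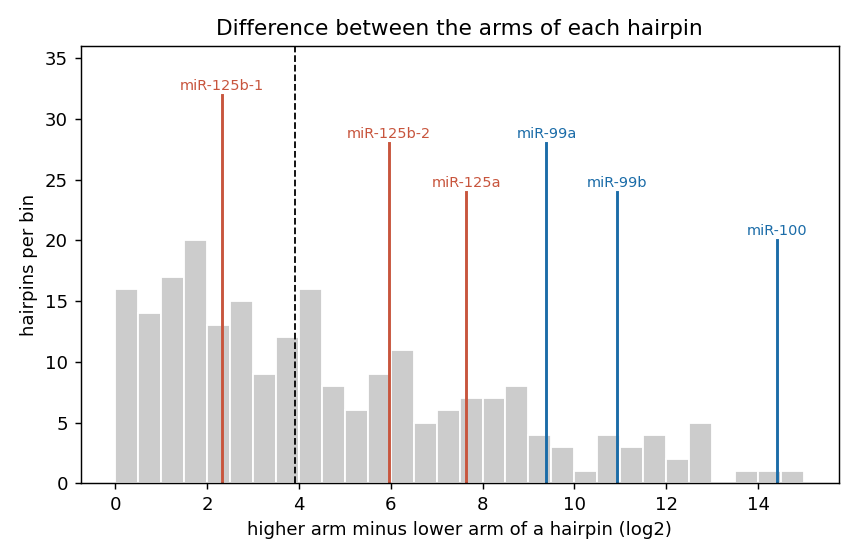
Grey bars count, in steps of 0.5 on the log2 scale, the hairpins by the difference between their higher and lower arm (228 hairpins, dashed line at the median of 3.91), and coloured lines mark the 6 member hairpins, with line heights chosen only to separate the names. The miR-99/100 hairpins (blue) lie from 9.39 to 14.42 and the miR-125 hairpins (red) from 2.32 to 7.65, where the values of both miR-125b copies are upper limits of 5p over 3p.

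Read as levels, the opposite arms of miR-125 were also high, as was miR-99b*. miR-125b-1-3p lay above all but 1 of the lower arms of the 228 hairpins without a copy number. The exception was miR-151-5p with 0.313%. Above miR-125b-2-3p lay 13 lower arms. Because the reads of miR-125b-5p could not be divided, it is not known whether these 3p arms are the lower arms of their own hairpins. Their places among lower arms are therefore uncertain. miR-125a-3p, at 61.5 RPM, had 30 lower arms above it, and miR-99b*, at 60 RPM, had 32. They were within 1.02-fold of each other, although their abundant arms differed by 9.48-fold. miR-99a* followed with 6.69 RPM, with 76 lower arms above it. miR-100* was the lowest member, with 169 lower arms above it.

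Cell type markers were checked in the same column. The 6 cardiomyocyte miRNAs summed to 1.52% of the miRNA reads, led by miR-208b, an intronic miRNA of a myosin heavy chain gene, with 1.18% at rank 15. miR-1a, a main miRNA of striated muscle, held 0.0397% at rank 90. The 4 miRNAs of smooth muscle and fibroblasts summed to 13.9%, of which miR-143 alone held 13.4%, and miR-126 of endothelial cells summed to 0.479%. Erythroid, leukocyte and epithelial miRNAs summed to 0.00018%, 0.00845% and 0.0037%. miR-99/100 and miR-125 are made in many cell types, and how much of their reads came from cells other than cardiomyocytes was not tested.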

How the data were processed

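Small RNA libraries were made by the authors with the TruSeq protocol from EMCMs and sequenced on an Illumina HiSeq2500. Tags of 18 to 30 nt were kept, mapped with Bowtie2, counted and added up per ID, and the authors used edgeR; the submitters' processing notes also name DESeq. Adapter ligation favours some sequences, so shares compare reads and not molecules.

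The authors deposited a log2 value of mean abundance for each of 689 miRNAs, averaged over both groups in a way not given in the sources used here. Read with base 2, the abundances summed to 0.995, and read with base 10, to 0.00756, so base 2 was used. The other columns hold the authors' comparison of stretched with static cultures (fold changes, P values and FDR) and were not used, so no test was run.

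Values were raised to the power of 2 and rescaled to a sum of 100%. Arms were paired by name (X with X*, 5p with 3p), leaving out rows at -35 or lower and, apart from the miR-125b copies, names with copy numbers. Depth per sample is unknown, so no interval or floor is given. The members, the relatives, the markers and the rule for named miRNAs (all members, their cluster and seed relatives, and the neighbours of each abundant arm in abundance) were chosen with earlier results of these data known. Other miRNAs named, such as miR-192, let-7f-2* and miR-151-5p, and the reading of the marker miR-1 as miR-1a and miR-1b, were chosen after their values were seen. Sequences came from RefSeq and positions from GENCODE M21. The steps were tested on simulated data. Python 3.11.15, numpy 2.4.6, pandas 2.3.3 and matplotlib 3.10.9 were used.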

Additional observations from a re-analysis of the deposited data

How the results depend on the processing

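Values were taken as moved when they changed by more than 1.1-fold, since no replicate spread was available. The shares of the 11 members (15.6%) and of miR-99b (11.7%) stayed within that limit without rescaling, with identical rows counted once and with only rows above 1 RPM. Without the most abundant miRNA in the denominator they were 19.6% and 14.7%. The log2 difference between the miR-99/100 and miR-125 families, 2.19, was 2.35 for the abundant arms only and 1.49 when miR-351 was added to the miR-125 side, an alternative chosen after seeing the data. Adding 1 RPM lowered the arm difference of miR-100 from 14.42 to 12.27 and that of miR-99a from 9.39 to 9.19. The median difference over all hairpins fell from 3.91 to 3.26 when both arms had to exceed 1 RPM. These changes follow from which rows or constants enter the sums. No other alternative moved a value beyond the limit, apart from the cluster shares with all of miR-125b-5p added and the log2 difference of miR-99a* over miR-100* with 1 RPM added (4.51 to 2.57), both also chosen after seeing the data.

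No paired analysis was possible because each value is a mean over both groups. For the same reason no culture was left out. The unknown depth limits the rarest rows most, above all miR-100*.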
